A study of Mus musculus with 3 samples.

Results

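Droplets that held transcripts of Sertoli cell genes were taken from single-cell RNA sequencing of mouse testis, and their expression was described across genes and compared between genotypes. A droplet carries 1 barcode, and transcripts are counted by their unique molecular identifiers (UMIs), 1 for each captured molecule. Barcodes with at least 1000 UMIs and more than 500 genes were kept, which gave 6520 (WT), 8727 (KO) and 3367 (KI), 18614 in all. A kept barcode was a member when Cst9, Rhox8, Clu, Defb19, Defb36, Cst12 and Aard together gave at least 3 UMIs and at least 0.15% of its UMIs. There were 1008 members, 337 (WT), 505 (KO) and 166 (KI). They made up 5.17% of the kept barcodes for WT (95% exact Clopper-Pearson interval 4.64 to 5.73), 5.79% for KO (5.31 to 6.30) and 4.93% for KI (4.22 to 5.72), and each pair of intervals overlapped. Among barcodes with at least 2000 UMIs the shares were 3.92%, 7.02% and 7.46%. Members were thus selected on the measured UMIs of these 7 genes, whose levels are given as a description only.

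Sertoli cells are the somatic cells of the seminiferous tubule. They enclose the germ cells, seal the blood-testis barrier, feed germ cells with lactate, engulf residual bodies and dying germ cells, and pass on the signals of follicle-stimulating hormone and testosterone. In the adult testis they no longer divide.

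The study asked how loss of GRTH, the testicular RNA helicase encoded by Ddx25, or of its phosphorylated form alters gene expression in testicular cells. WT was the wild type, KO (GRTH-KO) lacked the Ddx25 product, and KI (GRTH-KI) carried a knock-in mutation by which the phosphorylated form is lost. All were C57BL/6 and, by the labels, 8 weeks old with 1 mouse each, whereas the study's methods describe testes pooled within each genotype and a wider age range. Tubules were dispersed with collagenase and then trypsin, and 1 library was made per genotype, so the genotypes differ without replicates and could not be tested across samples.

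The libraries held 82973909 UMIs (WT), 91388296 (KO) and 73150373 (KI). Members had a median of 2108 UMIs (WT), 2072 (KO) and 3180 (KI), and the other kept barcodes had 4367, 1755 and 1671. Their summed UMIs came to 1181517, 1912510 and 1561632. Of the member barcodes, 1 was shared by KO and KI and 0 by WT with either. Ddx25, the targeted gene, had 132 UMIs in the WT members, 0 in the KO members and 76 in the KI members. The other kept barcodes held Ddx25 at 131 CPM (WT), 0.337 (KO) and 98.4 (KI), where CPM is UMIs per 1000000 UMIs summed over the barcodes of a set. The levels thus followed the genotype labels.

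Several of the genes with which members were found lie in blocks on chromosome 2, in families of small secreted proteins. In GENCODE M21 on GRCm38, Cst12 (chr2:148789361-148793546) and Cst9 (chr2:148835147-148838738) are cystatin family genes, a family named for inhibitors of cysteine proteases. The cystatin-like gene 8030411F24Rik (chr2:148782009-148785937) lies beside them. The beta-defensin genes Defb19 (chr2:152576086-152580312), Defb45 (chr2:152593191-152599399) and Defb36 (chr2:152604327-152612729) form a second block, and the protease inhibitor genes Eppin (chr2:164588343-164593594) and Wfdc10 (chr2:164656046-164657368) lie in another. The promoters of 4 of these neighbours are shown because their transcripts stood over 100 times above free RNA, the transcripts of broken cells that all droplets share, as read from empty barcodes. Each is 250 bases before to 50 bases after the RefSeq start on GRCm38.p6, read along the gene's strand, and covers chr2:148789115-148789414 for Cst12 (plus strand), chr2:148834897-148835196 for Cst9 (plus), chr2:152596436-152596735 for Defb45 (minus) and chr2:152604077-152604376 for Defb36 (plus). The Defb45 window lies inside the GENCODE span given above for that gene and away from its GENCODE start, unlike the other windows. Capitals mark matches on either strand to 3 kinds of motif. GATA factors were searched as AGATAA and also as TGATAA, and SOX factors as ACAAAG and also as AACAAT. The site of SF-1 was searched as CAAGGTCA.
Cst12: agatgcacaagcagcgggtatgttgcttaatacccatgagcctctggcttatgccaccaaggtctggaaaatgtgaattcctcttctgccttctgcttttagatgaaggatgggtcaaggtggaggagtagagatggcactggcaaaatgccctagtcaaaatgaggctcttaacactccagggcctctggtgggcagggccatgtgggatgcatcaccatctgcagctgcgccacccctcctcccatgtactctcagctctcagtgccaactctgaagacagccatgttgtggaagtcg
Cst9: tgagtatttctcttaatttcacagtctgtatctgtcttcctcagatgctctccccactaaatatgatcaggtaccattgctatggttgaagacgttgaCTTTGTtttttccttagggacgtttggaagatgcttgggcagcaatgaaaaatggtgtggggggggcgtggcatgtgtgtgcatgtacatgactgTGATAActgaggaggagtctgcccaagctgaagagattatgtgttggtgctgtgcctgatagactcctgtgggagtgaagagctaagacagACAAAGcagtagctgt
Defb45: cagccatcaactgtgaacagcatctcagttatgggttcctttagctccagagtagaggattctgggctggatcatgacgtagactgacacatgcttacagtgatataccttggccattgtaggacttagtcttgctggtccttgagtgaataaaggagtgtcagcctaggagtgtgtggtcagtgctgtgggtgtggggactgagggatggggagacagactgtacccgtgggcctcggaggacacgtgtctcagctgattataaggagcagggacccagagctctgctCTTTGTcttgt
Defb36: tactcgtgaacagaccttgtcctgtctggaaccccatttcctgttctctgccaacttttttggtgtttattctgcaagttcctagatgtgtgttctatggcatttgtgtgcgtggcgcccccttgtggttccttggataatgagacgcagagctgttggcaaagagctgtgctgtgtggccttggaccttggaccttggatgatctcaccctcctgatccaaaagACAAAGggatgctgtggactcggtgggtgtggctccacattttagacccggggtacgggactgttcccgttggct
The Cst9 window held 3 matches, a GATA match that starts 57 bases before the start and SOX matches that begin 152 bases before and 35 bases after it. The Defb36 and Defb45 windows each held 1 SOX match and the Cst12 window held 0. Such matches are common: GATA letters were in 18.6% of 32841 RefSeq promoter windows of the same length, SOX letters in 27.0% and CAAGGTCA in 1.6%. None of the matched motifs overlapped another, and a match describes letters and not binding.

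The 1008 members were not of 1 kind. By marker lists, 76 carried transcripts of Leydig cells, the androgen-producing cells outside the tubule, with at least 3 UMIs and 0.15% of UMIs from Star, Cyp11a1, Cyp17a1, Hsd3b1, Hsd3b6, Hsd17b3, Insl3 and Lhcgr. A further 88 had over 5% of their UMIs in spermatocyte and spermatid genes, and 110 met the same limits as the gate for Sycp1, Sycp2, Sycp3, Hormad1, Tex101 and Meiob, genes of meiotic cells. Another 9 also passed a gate for stromal and myoid cells or for macrophages. The other 725 are called the remaining members, 214 (WT), 400 (KO) and 111 (KI), and made up 3.28% (2.86 to 3.74), 4.58% (4.15 to 5.04) and 3.30% (2.72 to 3.96) of the kept barcodes, so that the KO interval lay above both others. They had medians of 1748, 1890 and 2337 UMIs. The 5% limit took out 62 WT, 19 KO and 7 KI members. Elongating spermatid genes gave 5.76%, 2.30% and 3.04% of the UMIs of empty barcodes, so free RNA counted unequally toward this limit. The part of the limit in the higher KO share was not tested. With at least 2000 UMIs, 90, 185 and 65 remaining members were left, and the share of all members was then highest in KI. These kinds were defined after the data were seen.

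**Figure D1:**
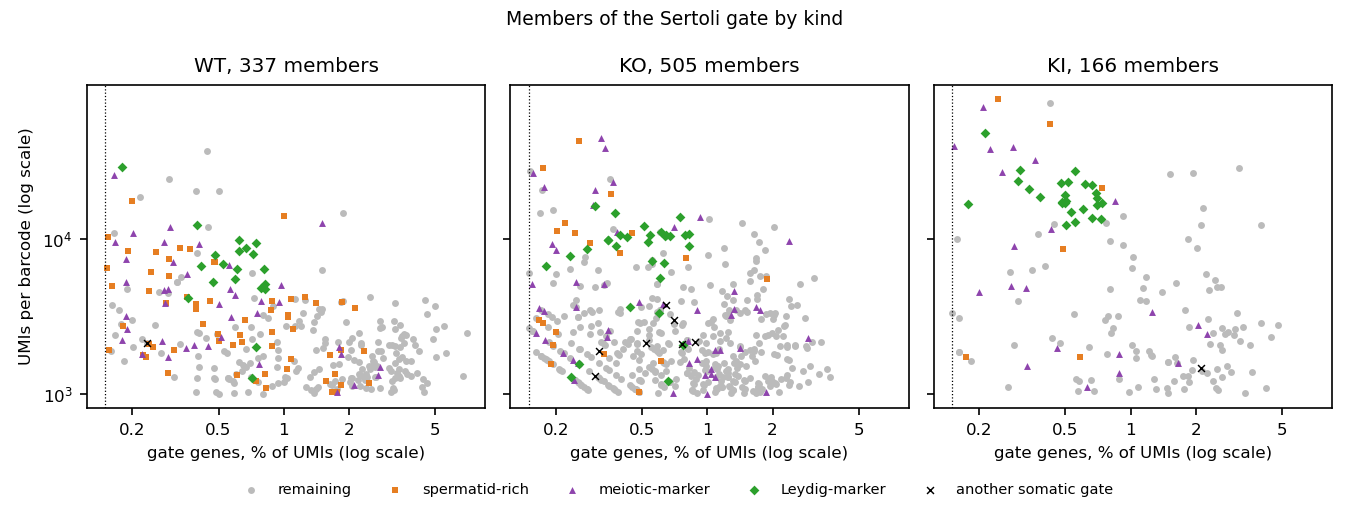
Each point is 1 member, by the share of its UMIs in the 7 gate genes (percent, log scale, dotted line at 0.15%) and its UMIs (log scale), with 1 panel per genotype and colours for the kinds. The Leydig-marker members of KI lie between 12348 and 48599 UMIs, those of WT reach down to 1267 and those of KO to 1213, and the remaining members of WT have an upper quartile of 2.81% of UMIs in gate genes.

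The members with Leydig cell markers numbered 20 (WT), 30 (KO) and 26 (KI). They were 5.93% of the WT members, 5.94% of the KO members and 15.7% of the KI members (10.5 to 22.1), and held 13.0%, 13.4% and 33.2% of the members' UMIs. Insl3, a hormone of Leydig cells, was detected in 20, 29 and 26 of them. Cyp17a1, an enzyme of androgen synthesis, stood at 4982, 4989 and 4248 CPM. Both are among the 8 genes that defined this kind, so their levels follow in part from the definition. These members entered through Defb19, found in all 76, and Clu, found in 20, 27 and 26. Aard was found in 11, 18 and 22. Cst9 was found in 1, 2 and 3 of them and Rhox8 in 0, 0 and 2, and Defb36 in 0 in each library. With Cst9, Rhox8 and Defb36 nearly absent, the Sertoli label did not hold for this kind. Outside the gate lay 0 WT, 4 KO and 1 KI kept barcodes with Leydig cell markers. In this kind Defb19 stood at 3367, 3128 and 2726 CPM and Clu, which encodes the secreted chaperone clusterin, at 1752, 1881 and 2069 CPM. Whether these barcodes hold 1 cell or more was not tested.

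**Figure D2:**
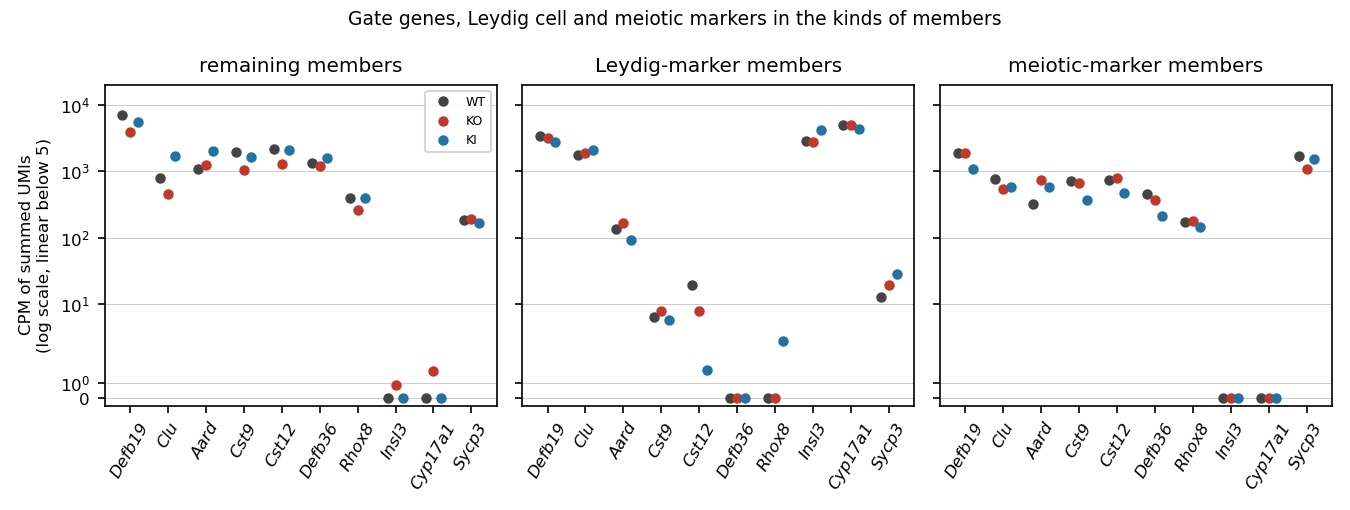
CPM of summed UMIs (log scale, linear below 5) of the 7 gate genes, the Leydig cell genes Insl3 and Cyp17a1 and the meiotic gene Sycp3, with 1 panel per kind of member and 1 point per library. In Leydig-marker members Defb19 and Clu lie above 1000 CPM, Aard lies below them, and Cst9, Cst12, Defb36 and Rhox8 stay below 20 CPM, whereas meiotic-marker members hold all 7 gate genes.

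Members with meiotic markers numbered 40 (WT), 49 (KO) and 21 (KI), which was 11.9%, 9.70% and 12.7% of the members. By the same limits, 9.11%, 13.4% and 14.0% of the other kept barcodes had meiotic markers. They held Sycp3, a part of the axis of meiotic chromosomes, at 1696, 1066 and 1497 CPM and Cst9 at 721, 664 and 362 CPM. Members rich in spermatid RNA numbered 62, 19 and 7, and genes of elongating spermatids gave 21.1%, 6.66% and 9.51% of their UMIs. This kind was 18.4% of the WT members and 3.76% of the KO and 4.22% of the KI members. Both kinds were defined by Sertoli and germ cell genes in the same barcodes. The Sycp3 and spermatid levels thus follow in part from the definition. Whether these barcodes were pairs of cells was not tested.

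Near the limit of the gate, 22 WT, 40 KO and 10 KI members had 0.15 to 0.20% of their UMIs in gate genes, with medians of 4240, 2778 and 3212 UMIs. Just outside it, at 0.10 to 0.15%, lay 49, 46 and 16 barcodes with medians of 4916, 6423 and 8832 UMIs. Gate genes gave 0.0141%, 0.0129% and 0.00926% of the UMIs of empty barcodes, which are those ranked 45000 to 90000 by UMIs and hold 6 to 441 UMIs. In the other kept barcodes they gave 0.00383%, 0.00661% and 0.00419%.

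As a set, the remaining members held several Sertoli cell genes that the gate did not use, at levels above free RNA. The label rests on the set and not on each barcode. Below 5% mitochondrial UMIs, Gatm in WT stood at 138 CPM, against 972 at 20% or more. Spermatocyte genes gave 0.631% (WT), 0.673% (KO) and 0.516% (KI) of their UMIs, against 0.669%, 0.894% and 0.880% in other kept barcodes. The source of these spermatocyte transcripts was not tested. In this and the following paragraphs a gene counts as above free RNA when its mean CPM over the 3 libraries is at least 3 times that in empty barcodes. Sox9, the factor that sets Sertoli cell fate, stood at 34.1 CPM for WT (95% exact Poisson interval 20.8 to 52.7), 23.5 for KO (15.4 to 34.5) and 52.1 for KI (34.6 to 75.3), and at 74.0 times its level in empty barcodes. Wt1, a zinc finger factor that maintains Sertoli cells, stood at 52.9, 25.3 and 130 CPM and Gata4, another factor of these cells, at 13.7, 9.95 and 57.7 CPM. These intervals cover counting error only.

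Amhr2, the receptor of anti-Müllerian hormone, stood at 259 CPM (WT), 168 (KO) and 436 (KI), and Inha, the inhibin subunit by which the testis restrains pituitary FSH, at 160, 116 and 292 CPM. Ctsl, a lysosomal protease secreted by Sertoli cells, stood at 701, 455 and 1327 CPM, which was 105 times its level in empty barcodes. Gatm, the first enzyme of creatine synthesis, was detected in 54.7%, 55.0% and 73.9% of the remaining members and in 1.16%, 2.19% and 2.78% of the other kept barcodes. With each barcode thinned to 1000 UMIs these shares were 38.8%, 37.0% and 50.5% against 0.307%, 0.547% and 0.406%. Some familiar Sertoli cell genes were barely sampled. Fshr, the receptor of follicle-stimulating hormone, had 1, 8 and 4 UMIs, and Trf (transferrin) stood at 1.71, 2.71 and 3.72 CPM.

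Markers of other somatic cells were summed in the remaining members and set beside empty barcodes. Barcodes past the Leydig, stromal and myoid or macrophage limits had been left out before, so low sums follow in part from that choice. The 8 Leydig cell genes gave 5.12, 20.8 and 76.3 CPM, against 7.64, 12.8 and 26.4, with Insl3 at 0, 0.905 and 0 CPM and Lhcgr at 0 in each. The 6 genes of peritubular myoid cells gave 51.2, 74.2 and 102 CPM, against 201, 138 and 167, and the 10 macrophage genes 11.9, 16.3 and 55.8 CPM, against 12.5, 12.9 and 14.4. Of these lists only Star, Acta2 and Mrc1 were tested and above free RNA. Star, which carries cholesterol into mitochondria, stood at 3.41, 12.7 and 72.6 CPM, and 19 of its 39 KI UMIs came from 1 barcode. Acta2, smooth muscle actin, stood at 1.71, 18.1 and 48.4 CPM and Mrc1, a receptor of macrophages, at 6.83, 11.8 and 50.3 CPM. In KI these 3 genes thus stood near the level of Sox9. None of the stromal, endothelial or erythroid genes reached this state. The part of these transcripts in the differences between genotypes was not tested.

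In the remaining members, none of the 11 spermatocyte, 10 round spermatid and 13 elongating spermatid genes lay above free RNA. Barcodes with over 5% of UMIs in these lists, or with meiotic markers, had been left out. Low levels thus follow in part from the selection. Over all members, 2 spermatocyte genes were tested and above free RNA. The 9 spermatogonial genes summed to 179, 136 and 195 CPM, against 20.1, 21.8 and 31.3 in empty barcodes. The 1 gene of that list above free RNA was Uchl1, a ubiquitin hydrolase, at 152, 122 and 179 CPM. Prm2, a protamine that packs sperm DNA, stood at 1940 CPM (WT), 1456 (KO) and 808 (KI), against 12563, 4978 and 6755 CPM in empty barcodes. Sycp3 stood at 184, 190 and 166 CPM, against 155, 228 and 219. The elongating spermatid list gave 1.0%, 0.790% and 0.453% of the remaining members' UMIs, against 5.76%, 2.30% and 3.04% in empty barcodes. Ddx25 itself stood at 143 CPM in the remaining members of WT (114 to 177) and 145 CPM in empty barcodes, and at 59.6 CPM (40.7 to 84.1) and 117 CPM in KI. In KO it had 0 of 1105157 UMIs, which allows up to 2.71 CPM, the level of 3 UMIs. Thinned to 1000 UMIs, 13.1% of the WT and 6.31% of the KI remaining members had a Ddx25 UMI, against 10.2% of other kept barcodes in both (21.5% and 19.8%, against 36.3% and 34.4%, unthinned). These other barcodes include germ cells, which express Ddx25. The CPM of Ddx25 in the remaining members was not above that in empty barcodes in either library. Free RNA is only part of a barcode's UMIs, so this does not show that these members lack Ddx25 transcripts of their own. The source of these UMIs was not tested.

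Other genes of these families in the files were described as well. Cst8 and Cst13, which lie between Cst12 and Cst9, were below the level of free RNA. Cst8 stood at 119 CPM (WT), 167 (KO) and 147 (KI) in the remaining members, against 668, 464 and 625 in empty barcodes. Cst13 stood at 42.7, 66.1 and 29.8 CPM, against 214, 159 and 223. Beside the gate genes, 3 name families had members above free RNA that passed the minimum of 20 CPM. These were Defb45 among 42 beta-defensin genes and Cst3 and Cstb among 17 genes whose names start with Cst. The third was Rhox5 among 34 Rhox homeobox genes of the X chromosome.

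A large part of the members had a high share of mitochondrial UMIs. At least 10% of UMIs were mitochondrial in 44.2% of the WT members, 39.0% of KO and 46.4% of KI, against 2.25%, 3.84% and 4.87% of the other kept barcodes. A limit of 10%, as the study's methods used, left 188, 308 and 89 members. Gatm and Tsx, genes of Sertoli cells that the gate did not use, stood higher where this share was high. Gatm in the WT remaining members stood at 138 CPM below 5% mitochondrial UMIs, 569 at 5 to 10%, 876 at 10 to 20% and 972 at 20% or more. In KO it stood at 226, 419, 708 and 900 CPM in the same bands, and in KI at 298, 947, 1314 and 1200 CPM. Tsx, an X-linked gene, went from 121 to 756 CPM between the lowest and the highest WT band, from 203 to 675 across the KO bands and from 182 to 927 across those of KI. From the lowest to the highest band there were 51, 36, 47 and 80 WT members, 132, 88, 119 and 61 KO members and 28, 20, 34 and 29 KI members, so that KO had a larger share of its members in the lowest band. Other genes did not follow Gatm. Ctsl in KO stood at 312, 461, 708 and 300 CPM, and Cldn11, a claudin, stood at 12.1, 140, 52.8 and 76.3 CPM in the WT bands, 15.2, 23.3, 71.1 and 34.6 in KO and 30.4, 353, 269 and 136 in KI.

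**Figure D3:**
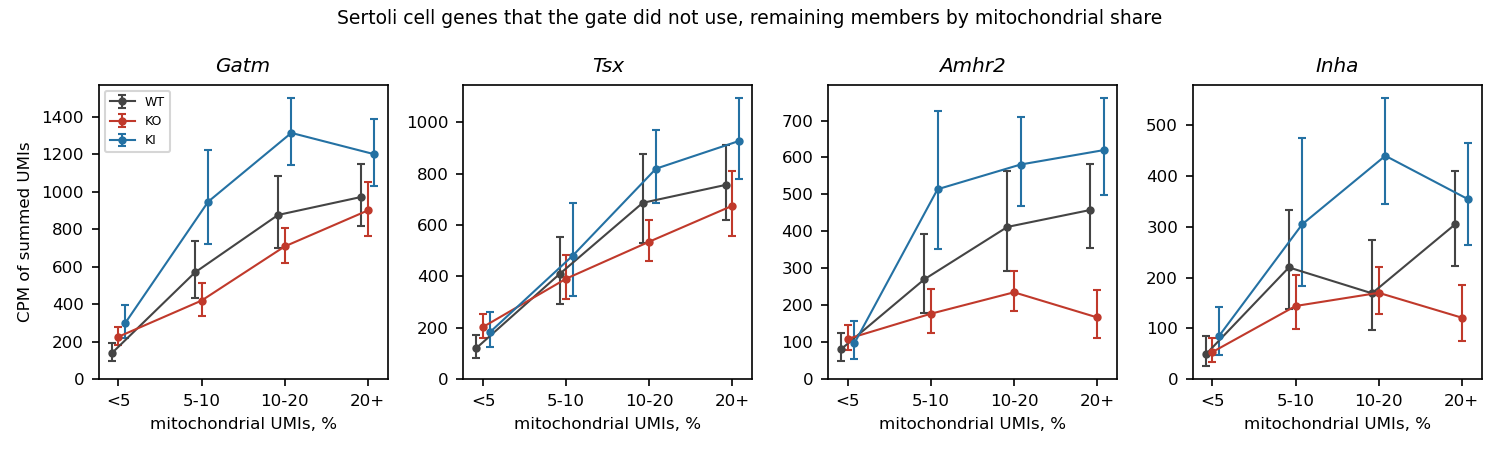
CPM of summed UMIs of Gatm, Tsx, Amhr2 and Inha in the remaining members of each library, by the share of mitochondrial UMIs (percent), with 95% exact Poisson intervals for counting error. Gatm and Tsx stand lowest below 5% in each library, and Amhr2 in KO stays between 109 and 235 CPM in each band while in KI it reaches 620 CPM.

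Amhr2 differed between the libraries in how it went along these bands. It stood at 81.0, 270, 412 and 458 CPM in WT and at 97.2, 514, 581 and 620 CPM in KI, but at 109, 177, 235 and 167 CPM in KO. The median share of gate genes was larger in each further band of WT (0.438, 1.22, 2.05 and 2.71% of UMIs) and of KO (0.372, 0.760, 1.15 and 1.53%), while in KI it stood at 0.570, 1.21, 2.31 and 1.94%.

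The comparison of genotypes asked which transcripts of these cells stood apart in KO and KI. Both are set against the same WT library and share its error. Among genes with a mean of at least 20 CPM over the libraries, 1744 lay above free RNA in all members and 1077 in the remaining members. A log2 ratio was taken with 1 CPM added. In all members, 49 of the 1744 genes (2.81%) were higher in KO than in WT by at least 2-fold and 40 (2.29%) lower. In KI, 514 (29.5%) were higher and 3 (0.172%) lower than in WT, and against KO 561 (32.2%) were higher and 2 (0.115%) lower. This one-sided split was not kept without members of over 10000 UMIs, where of 1145 genes 147 were higher and 186 lower in KI than in WT, and 111 higher and 132 lower than in KO. That limit also took out all Leydig-marker members of KI, which had at least 12348 UMIs. Those of WT and KO had medians of 6582 and 9666 UMIs, so many of them stayed in. In the remaining members the split over WT was kept under this limit, with 120 of 932 genes higher and 20 lower in KI. With the profile of empty barcodes subtracted from each library, 3466 genes were tested, of which 248 were higher and 233 lower in KI than in WT, and 55 higher and 799 lower in KO than in WT. The amount subtracted was set by elongating spermatid genes. They gave 5.52% (WT), 1.19% (KO) and 1.38% (KI) of the members' UMIs, against 5.76%, 2.30% and 3.04% in empty barcodes. By far the largest part was thus taken from WT, and the effect of this on these counts was not tested. Relative to WT, 45 genes (2.58%) were higher in both mutants and 1 (0.0573%) lower in both. Without members over 10000 UMIs, 11 were higher and 54 lower in both, and with the empty profile subtracted 48 higher and 140 lower. Scaled to the UMIs of the 1744 genes alone, 195 genes (11.2%) were higher and 28 (1.61%) lower in KI than in WT.

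In the remaining members, 35 of 1077 genes (3.25%) were higher in KO than in WT by at least 2-fold and 91 (8.45%) lower. With the empty profile subtracted the balance turned, with 94 higher and 75 lower of 1365 and a median log2 ratio of 0.08. Here the amount subtracted was largest in KO, where elongating spermatid genes gave 0.790% of UMIs against 2.30% in empty barcodes. In WT they gave 1.0% against 5.76%. In KI, 361 (33.5%) were higher and 5 (0.464%) lower, and against KO 463 (43.0%) were higher and 1 (0.0929%) lower. Relative to WT, 35 genes (3.25%) were higher in both mutants and 1 (0.0929%), Gas6, lower in both. As a mean over cells, 11 were higher and 14 lower in both. Without members over 10000 UMIs the numbers were 12 and 13, and scaled to genes above free RNA 42 and 7. Under the limit of 10% mitochondrial UMIs 713 genes were tested, of which 143 were lower in KO and 35 higher in both mutants. These shared 36 genes with the 91 and 8 with the 35 given above, and Gas6 was not lower in both. Over the 1077 genes the median log2 ratio came to -0.17 for KO over WT, 0.71 for KI over WT and 0.87 for KI over KO. With the UMIs of these genes as the scale the medians were 0.02, 0.34 and 0.31, and 47 genes (4.36%) were higher and 62 (5.76%) lower in KO. On that scale 231 genes (21.4%) were higher and 14 (1.30%) lower in KI than in WT, and 240 (22.3%) were higher and 2 (0.186%) lower than in KO. Each KI value below is to be read against the median of 0.71.

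**Figure D4:**
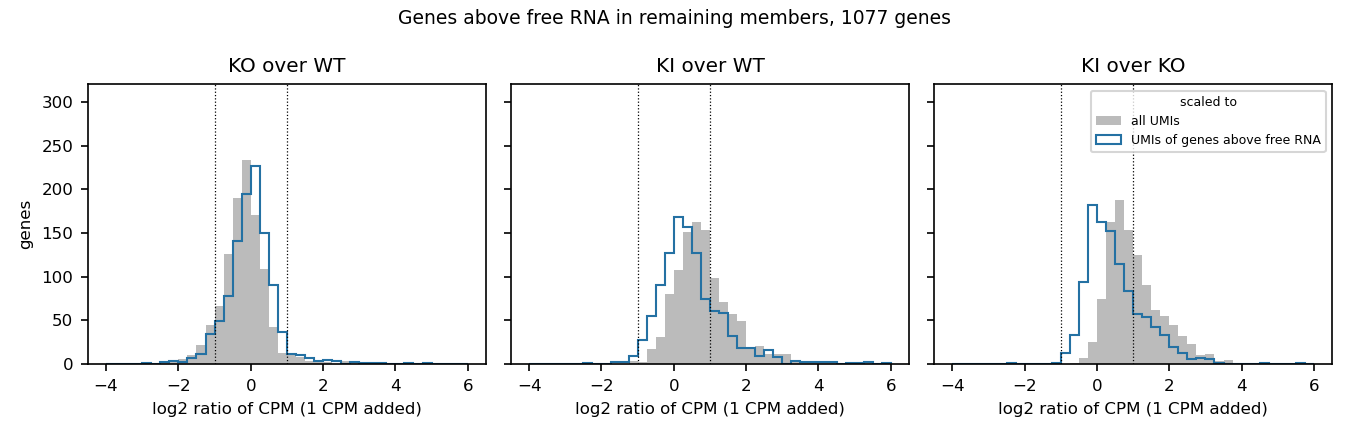
Numbers of genes by log2 ratio of CPM for 1077 genes above free RNA in the remaining members, scaled to all UMIs (grey) or to the UMIs of these genes (blue line), with dotted lines at 2-fold. The KI ratios centre at 0.71 over WT and 0.87 over KO on the first scale, and at 0.34 and 0.31 on the second.

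A few barcodes of many UMIs weighed on the KI sums. Of the remaining members, 8 (WT), 11 (KO) and 12 (KI) had over 10000 UMIs, and they gave 27.0%, 15.8% and 48.1% of the summed UMIs. Without them, of the same 1077 genes 154 were at least 2-fold higher and 36 lower in KI than in WT, with a median of 0.33. For KO the numbers were 37 higher and 125 lower, with a median of -0.33. The median share of germ cell genes in the remaining members was 1.69% (WT), 1.67% (KO) and 1.07% (KI). The part of depth and of free RNA in the KI excess was not tested.

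The counts of each gene list below are to be read against the 1077 genes as a whole. Of these, 33.5% were higher in KI and 8.45% lower in KO. The 7 gate genes had a KO median log2 ratio of -0.74. Their median share per remaining member was 1.53% (WT), 0.792% (KO) and 1.49% (KI) of UMIs. The part of this lower share in the KO values below was not tested. Of 14 transcription factors of Sertoli cells, 8 lay above free RNA with enough UMIs. KO had 0 of them at least 2-fold higher and 1 lower, with a median log2 ratio of -0.19. KI had 4 higher and 0 lower with a median of 1.02, but 0 higher without the members of over 10000 UMIs. The KO gene was Wt1, at 25.3 CPM against 52.9 in WT, and without deep members it stood at 58.4 CPM (WT), 21.5 (KO) and 68.1 (KI). Rhox5, an androgen-responsive homeobox gene, stood at 121 CPM (WT), 161 (KO) and 270 (KI). Cited1, a transcriptional coregulator, stood at 331, 340 and 490 CPM.

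Of 16 hormone receptors and androgen-responsive genes, 8 lay above free RNA. In KO 1 was higher and 1 lower, with a median of -0.08, and in KI 4 were higher, with a median of 0.95. Without deep members 1 was higher in KI, with a median of 0.52. The gene higher in KO was Thra, a thyroid hormone receptor, with 4, 31 and 14 UMIs, and the lower one was Igf1r, the receptor of insulin-like growth factor 1, at 11.9, 3.62 and 46.5 CPM. Tsx stood at 418 (367 to 474) and 411 CPM (374 to 450) in WT and KO, with overlapping intervals, and at 614 CPM (550 to 684) in KI. Eppin, a sperm-coating protease inhibitor under androgen control, stood at 140, 174 and 201 CPM.

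Of 20 ligands for germ cells and the pituitary, 4 lay above free RNA, with a median of -0.47 in KO and 1.05 in KI (-0.13 without deep members), and 2 were higher in KI. Kitl, the stem cell factor that binds Kit on germ cells, stood at 20.5, 12.7 and 65.2 CPM, and at 23.4, 11.8 and 17.9 without deep members. Inha without deep members stood at 199, 127 and 240 CPM. The direction of Kitl in KI thus rested on the deep members.

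Of these lists, that of the blood-testis barrier and adhesion moved the most in KI with the deep members. Of 25 genes, 5 lay above free RNA, and KI had 4 higher with a median of 1.64, against 1 higher and a median of 0.15 without deep members. Cldn11, the claudin of the Sertoli cell tight junction, stood at 56.3 CPM for WT (38.8 to 79.1), 36.2 for KO (25.9 to 49.3) and 169 for KI (136 to 208). Without deep members it stood at 67.8, 32.2 and 75.3 CPM. Espn, an actin bundler of the ectoplasmic specialization, stood at 181, 98.6 and 329 CPM, and at 180, 92.4 and 183 without deep members. In KO both values were below WT with and without deep members, though the Cldn11 intervals of all remaining members overlapped. The gate genes were lower in KO as well, with a median log2 ratio of -0.74. Itgb1, an integrin chain, stood at 25.6, 5.43 and 81.9 CPM and was the KO gene at least 2-fold lower, from 15 and 6 UMIs.

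Of 23 genes of the cytoskeleton, 10 lay above free RNA, with 0 past 2-fold in KO and a median of 0.05, and with 3 higher in KI and a median of 0.91. Without deep members 1 was lower in KO and 1 higher in KI, with a KI median of 0.56. Vim, the intermediate filament of Sertoli cells, stood at 108, 110 and 214 CPM and Tuba1a, a tubulin, at 150, 171 and 313 CPM. Tmsb4x, which binds actin monomers, stood at 2503, 2701 and 4075 CPM.

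Secreted carriers, proteases and inhibitors had the most KO genes below WT among these lists. Of 20 genes, 13 lay above free RNA, with 1 higher and 4 lower in KO (median -0.62) and 6 higher and 1 lower in KI (median 0.93, or 0.03 without deep members). Scaled to the UMIs of genes above free RNA, KI had 2 higher and 4 lower, with a median of 0.59. The 4 lower in KO were Cst3, Ptgds, Igfbp7 and Gas6, and the 1 higher was Timp1. Sparc, a matrix-binding glycoprotein, stood at 205, 111 and 504 CPM, and Timp2, an inhibitor of matrix metalloproteases, at 155, 167 and 326 CPM. For engulfment and the lysosome, 11 of 25 genes lay above free RNA, with 0 higher and 2 lower in KO and 5 higher and 1 lower in KI (median 0.93). Without deep members KI had 2 higher and 2 lower, with a median of 0.09. The 2 in KO were Gas6 and Creg1. Elmo1, a protein of the engulfment machinery, stood at 20.5, 34.4 and 160 CPM, and at 16.4, 24.7 and 75.3 without deep members.

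Of 21 genes of glucose use and lactate supply 5 lay above free RNA, with 0 past 2-fold in KO (median -0.33) and 1 higher in KI (median 0.74). Ldhb, a lactate dehydrogenase chain, stood at 633, 538 and 750 CPM. Gatm and Gamt, the enzymes of creatine synthesis, stood at 536, 510 and 929 CPM and at 222, 256 and 326 CPM, and 0 of them passed 2-fold in either mutant. Of 24 glutathione S-transferases, which conjugate toxic compounds, 7 lay above free RNA, with a median of 0.09 in KO and 0.77 in KI. Gsta2 stood at 52.9, 46.1 and 171 CPM and Gstm1 at 283, 341 and 666 CPM, and these were the 2 members higher in KI. Without deep members Gsta2 stood at 60.8, 50.5 and 219 CPM. These genes are close in sequence, so reads may be split between them.

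Of 26 genes of metal handling and antioxidants, 6 lay above free RNA, with 0 past 2-fold in KO and 1, Txn1, higher in KI. Immediate early and heat shock genes, which answer stress and tissue dispersal, had 3 of 21 above free RNA, with medians of -0.40 and 1.09, or -0.14 and 0.29 without deep members. Hspb1, a small heat shock protein, stood at 258, 348 and 551 CPM. Of 10 genes of cell division 0 lay above free RNA, and of 11 genes of cell cycle arrest 3 did. Of 13 mitochondrially encoded genes all lay above free RNA, with medians of -0.35 in KO and 0.15 in KI. The KI median turned to -0.13 without deep members and to -0.23 when scaled to the UMIs of genes above free RNA. Of 83 cytosolic ribosomal protein genes, 8 lay above free RNA, with medians of -0.02 and 0.54. Of 18 genes of retinoid handling 3 lay above free RNA. Aldh1a1, which makes retinoic acid, stood at 88.7, 74.2 and 201 CPM and Rara, a retinoic acid receptor, at 35.8, 32.6 and 37.2 CPM.

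Tnni3, an inhibitory troponin best known from heart muscle, stood above WT in both mutants. It had 30, 229 and 143 UMIs, that is 51.2 CPM (34.5 to 73.1), 207 CPM (181 to 236) and 266 CPM (224 to 314). The WT interval lay below both others, and the log2 ratios were 2.00 and 2.36. It was found in 4.21%, 16.8% and 26.1% of thinned remaining members, against 1.80%, 1.40% and 1.91% of other kept barcodes (7.48%, 31.8% and 44.1%, against 11.1%, 6.46% and 10.2%, unthinned). Below 10% mitochondrial UMIs it stood at 49.0, 122 and 141 CPM and at or above it at 54.4, 312 and 358 CPM.

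**Figure D5:**
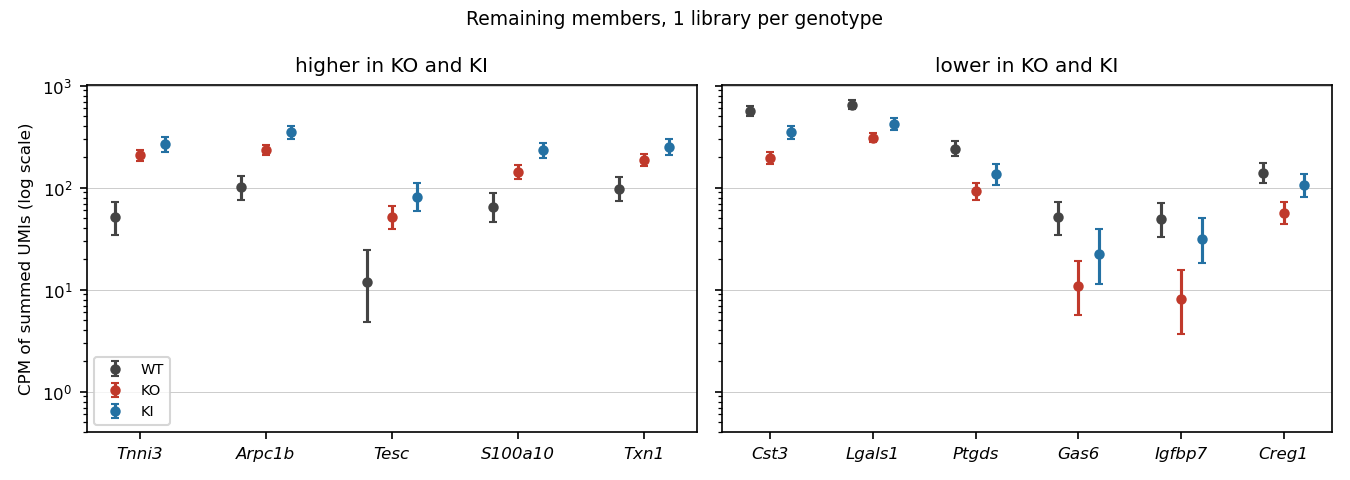
CPM of summed UMIs (log scale) in the remaining members for 5 genes higher and 6 genes lower in KO and KI than in WT, with 1 point per library and 95% exact Poisson intervals for counting error. Listed as WT, KO and KI, Tnni3 lies at 51.2, 207 and 266 CPM and Cst3 at 568, 195 and 352 CPM.

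Arpc1b, a subunit of the actin-nucleating Arp2/3 complex, stood at 101 CPM for WT (76.6 to 130), 234 for KO (207 to 265) and 350 for KI (302 to 404). Tesc, a calcium-binding protein that acts on sodium-proton exchange, had 7, 57 and 44 UMIs and stood at 11.9, 51.6 and 81.9 CPM. For both the WT interval lay below those of KO and KI, and like Tnni3 both were at least 2-fold higher in KO and KI under 12 of 12 alternatives. S100a10, the partner of annexin A2 at membranes, stood at 64.8, 143 and 233 CPM. Txn1, the thioredoxin of the cytosol, stood at 97.3, 187 and 251 CPM, 0.94 and 1.36 above WT on the log2 scale. Hopx, a homeodomain cofactor and 114 times above its empty level, stood at 76.8, 119 and 153 CPM.

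The 10 genes that stood highest in both mutants by the naming rule included Tnni3, Arpc1b, S100a10, Txn1, Cd63, Elmo1, Arhgdia, Commd6 and Pdrg1. Cd63, a tetraspanin of late endosomes, stood at 29.0, 62.4 and 155 CPM, and at 30.4, 58.0 and 61.0 CPM without deep members. Arhgdia, which holds small GTPases of the cytoskeleton inactive, stood at 39.2, 65.1 and 67.0 CPM. Commd6 stood at 39.2, 66.1 and 68.9 CPM and Pdrg1 at 35.8, 57.0 and 76.3 CPM, both under 2-fold in KO. Timp1, the secreted inhibitor of metalloproteases, had 1 UMI (WT), 23 (KO) and 46 (KI), in 1, 17 and 18 members.

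Cst3, which encodes cystatin C, a secreted inhibitor of cysteine proteases, stood below WT in both mutants. Its level was 568 CPM for WT (509 to 633), 195 for KO (169 to 222) and 352 for KI (303 to 406), with log2 ratios of -1.54 and -0.69. The intervals of the 3 libraries did not overlap. A Cst3 UMI was found in 37.4%, 19.0% and 25.2% of thinned remaining members, against 3.04%, 4.90% and 5.47% of other kept barcodes (54.2%, 34.0% and 55.0%, against 15.8%, 17.0% and 24.4%, unthinned). Without deep members it stood at 678, 210 and 391 CPM. In the Leydig-marker members Cst3 stood in another order, at 3269, 6964 and 3718 CPM. Cst3 lies at chr2:148871722-148875692, beside Cst9, which stood at 1916, 1047 and 1631 CPM.

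Ptgds, the prostaglandin D synthase that Sertoli cells secrete, stood at 242 CPM for WT (204 to 286), 92.3 for KO (75.3 to 112) and 136 for KI (107 to 171). In the Leydig-marker members it stood at 14027, 12278 and 15590 CPM and in empty barcodes at 10.8, 9.18 and 18.7 CPM. Lgals1, a galectin, stood at 650 (587 to 719), 310 (278 to 345) and 424 CPM (371 to 483), with log2 ratios of -1.06 and -0.61. Gas6, the ligand that bridges dying cells to the TAM receptors of Sertoli cells, had 30, 12 and 12 UMIs and stood at 51.2, 10.9 and 22.3 CPM. Creg1, a lysosomal glycoprotein, stood at 140, 57.0 and 106 CPM and Igfbp7, a secreted binder of insulin-like growth factors, at 49.5, 8.14 and 31.6 CPM.

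The mitochondrial gene mt-Nd6, a subunit of complex I, stood at 241, 103 and 140 CPM, at 60.5, 39.4 and 39.7 CPM below 10% mitochondrial UMIs and at 502, 181 and 213 CPM at or above it. Bik, which promotes apoptosis, stood at 116, 58.8 and 80.0 CPM, and S100a1, a calcium-binding protein, at 76.8, 42.5 and 35.4 CPM. Ppm1m, a protein phosphatase, stood at 104, 45.2 and 63.3 CPM, but its KO ratio turned to 0.26 with the mitochondrial limit. Yipf1 (253, 138 and 162 CPM), Cuta (66.6, 40.7 and 44.7 CPM) and Gcc2 (131, 89.6 and 96.8 CPM) completed the 10 lowest in both mutants, with Cst3, Ptgds and Lgals1.

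Among the genes furthest above KO in KI, Gpm6b and Mageb18 had a large part of their KI UMIs in 1 barcode. Gpm6b, a membrane proteolipid, stood at 17.1, 12.7 and 171 CPM, and 32 of its 92 KI UMIs came from 1 barcode. Mageb18, an X-linked gene of the MAGE family, stood at 41.0, 39.8 and 335 CPM, with 73 of 180 KI UMIs from 1 barcode, and L3mbtl4 at 27.3, 18.1 and 207 CPM. Without deep members Gpm6b stood at 21.0, 11.8 and 21.5 CPM, Mageb18 at 18.7, 16.1 and 0 CPM (0 UMIs allow up to 10.8 CPM) and L3mbtl4 at 7.01, 9.67 and 7.17 CPM. Map4k4 and Mast4, both kinases, stood at 35.8, 13.6 and 108 CPM and at 41.0, 17.2 and 149 CPM. At the other end, Fkbp3, Gm15543, Lsm7, S100a1 and Tomm5 lay closest to or below their KO level in KI, with Fkbp3 at 87.0, 86.0 and 81.9 CPM.

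Several of the genes most particular to the members by their ratio to free RNA differed by less than 2-fold between the 3 libraries. Wfdc10 stood at 596 CPM for WT (535 to 661), 607 for KO (562 to 655) and 871 for KI (794 to 954), 142 times its level in empty barcodes, and the KI interval lay above both others. 8030411F24Rik stood at 237 (199 to 280), 193 (168 to 220) and 220 CPM (182 to 263), with overlapping intervals and 139 times the empty level. Defb45 stood at 497, 566 and 676 CPM. Others had their lowest value in KO, among them Qpct, which forms N-terminal pyroglutamate, at 88.7, 38.9 and 96.8 CPM, Zyx, a focal adhesion protein, at 44.4, 40.7 and 149 CPM, Aqp8, a water channel, at 34.1, 22.6 and 104 CPM and Sdc4, a syndecan, at 71.7, 59.7 and 208 CPM. Of the gate genes, which the rule used, Defb19 stood at 7075, 3875 and 5410 CPM, Cst12 at 2114, 1268 and 2081, Defb36 at 1311, 1198 and 1582, Aard at 1080, 1243 and 1977, Clu at 800, 454 and 1700 and Rhox8 at 398, 264 and 397 CPM. The Clu level in KI was 918 CPM without deep members.

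The comparison over all members also held the Leydig-marker members. With them 517 of 1744 genes were at least 2-fold higher or lower in KI than in WT, without them 200 of 1113, and in the remaining members 366 of 1077. Of the 10 genes highest in both mutants over all members, Lifr, Txnip, Hpgd, Arhgap24, Dync1i1 and 9230104L09Rik stood higher in this kind than in the remaining members in each library. Lifr, a cytokine receptor chain, stood there at 287 CPM (208 to 385), 704 (605 to 815) and 798 (723 to 878), but at 5.12, 2.71 and 3.72 CPM in the remaining members. Txnip, which binds thioredoxin, stood there at 143 (89.8 to 217), 622 (529 to 726) and 755 CPM (682 to 834), against 11.9, 5.43 and 24.2 CPM. Tesc, S100a10 and Tnni3 were also among the 10. In KO and KI some Leydig-marker members also passed the stromal and myoid or the macrophage gate. Without all members that passed these gates, Lifr and Hpgd were no longer at least 2-fold higher in both mutants. Txnip, Arhgap24, Dync1i1 and 9230104L09Rik still were.

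Steroid and lipid genes of the Leydig-marker members also differed between these libraries. Abca1, which exports cholesterol, stood at 410 (315 to 525), 868 (758 to 990) and 1441 CPM (1340 to 1548), and Sult1e1, the estrogen sulfotransferase, at 710, 809 and 1722 CPM. Star went the other way, at 1602 (1408 to 1815), 1267 (1133 to 1413) and 701 CPM (631 to 777). Alas1, the first enzyme of heme synthesis, stood at 1244 (1074 to 1433), 301 (238 to 376) and 173 CPM (139 to 213). Cyp11a1, which starts steroid synthesis, was close in the 3 libraries when all barcodes of this kind were summed, at 2214, 2072 and 2219 CPM. Hsd3b6, the next enzyme of that pathway, stood at 977, 1814 and 1229 CPM. These sums rest on 20, 30 and 26 barcodes with medians of 6582, 9666 and 17998 UMIs. Markers of other cells moved with them. The 10 macrophage genes summed to 274, 626 and 890 CPM in this kind and the 8 stromal genes to 241, 598 and 326 CPM, and genes of elongating spermatids to 50448, 1271 and 516 CPM. Of the WT barcodes 1, with 29391 UMIs, had 25.4% of them in germ cell genes. Without it the WT levels were 491 CPM for Abca1 (376 to 631), 781 for Sult1e1 (633 to 953), 1844 for Star (1613 to 2099) and 1474 for Alas1 (1268 to 1703), with the order of the libraries as before. Cyp11a1 in WT then stood at 2529 CPM (2257 to 2824) and was highest, against 2072 in KO (1900 to 2257) and 2219 in KI (2093 to 2351). Over all members, Abca1 was not at least 2-fold higher in both mutants once members that passed another somatic gate were left out, while Alas1 stayed lower. The part of macrophage, stromal and germ cell transcripts in the differences within this kind was not tested.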

How the data were processed

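Single-cell libraries of testicular cells, 1 each of WT, KO and KI (replicate 1 in the labels of every genotype), were analysed. The authors aligned reads to mm10 with Cell Ranger (version 2.1.1 per the labels' processing notes, version 4 per the file headers) and deposited raw UMI counts of all barcodes, neither normalized nor called as cells.

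Counts were summed over members per library and scaled to CPM. With 1 library per genotype no test was made. Intervals are exact at 95% and cover counting error only, and a count of 0 was read as up to 3 UMIs. Doublets were not removed and no caller was run. Barcodes were thinned to 1000 UMIs for shares of barcodes with a UMI, and 0 kept barcodes were too shallow for this. Members, gene lists and rules were chosen with earlier results of these data known, and the kinds of members after the data were seen. Named genes were the gate genes, list members, the 15 highest over empty barcodes, the 10 highest and 10 lowest by the smaller ratio of KO and KI against WT, the 5 largest each way of KI against KO (all with a mean of at least 50 CPM, the ratios only above free RNA) and Ddx25. Star, Sult1e1 and other genes of the Leydig-marker members fall under the same rule over all members or the lists, and the chromosome 2 neighbours under the name families. Alternatives covered cell limits, scaling (edgeR TMM and genes above free RNA), subtraction of the empty profile, pseudocount and low-count filter, and those on kinds, deep members and germ cell UMIs in Leydig-marker members were added after seeing the data. The ratio script was tested on simulated data. Python 3.11.15 (numpy 2.4.6, matplotlib 3.10.9, pandas 2.3.3, scipy 1.17.1) and R 4.3.3 (edgeR 4.0.16) were used. Promoters were RefSeq windows (GRCm38.p6), of which 5 of 9 genes looked for had an entry. Some genes and a motif that fall under these rules are not reported here.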

Additional observations from a re-analysis of the deposited data

How the results depend on the processing

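No paired analysis was possible because each genotype has 1 library. Members were 3.02%, 3.75% and 2.84% of kept barcodes in WT, KO and KI under 10% mitochondrial UMIs, 4.31%, 4.49% and 4.31% with the stricter gate, and 3.92%, 7.02% and 7.46% with at least 2000 UMIs. Counts below are genes past 2-fold in either direction, and rest on different numbers of genes. In all members and in the remaining members these were 1744 and 1077 as reported, 1735 and 713 under the mitochondrial limit, 1208 and 997 as a mean over cells, 3466 and 1365 with the empty profile subtracted, 3510 and 2160 at the 5 CPM minimum and 1145 and 932 without members over 10000 UMIs. They were 1113 without Leydig-marker members, 2038 without members over 5% germ cell UMIs, 1661 without those of another somatic gate, and for the remaining members 1094 with at least 2000 UMIs and 1456 with meiotic-marker members. In all members, KO against WT gave 89 genes as reported and 139 under the mitochondrial limit, 854 with the empty profile subtracted (55 higher, 799 lower), 52 with 5 CPM added, 384 at a 5 CPM minimum and 157 without members over 5% germ cell UMIs. KI against WT gave 517 as reported, 481 with the empty profile subtracted (248 higher, 233 lower), 305 as a mean over cells, 223 scaled to genes above free RNA, 1201 with at least 5 CPM, 333 without members over 10000 UMIs (147 higher, 186 lower) and 200 without Leydig-marker members. KI against KO gave 563, and 149, 1261, 243 (111 higher, 132 lower) and 282 under the scaling, filter, depth and Leydig alternatives. Genes higher in both mutants numbered 45 as reported, 22 as a mean over cells, 25 with 5 CPM added, 185 with at least 5 CPM, 11 without members over 10000 UMIs, 29 without members of another somatic gate and 21 without Leydig-marker members. In the remaining members, KO against WT gave 126 (35 higher, 91 lower), and 169 with the empty profile subtracted (94 higher, 75 lower), 79 at 5 CPM added and 486 at a mean of at least 5 CPM. KI against WT gave 366, with 207 as a mean over cells, 925 at 5 CPM, 140 without members over 10000 UMIs and 218 with meiotic-marker members. KI against KO gave 464, with 242 scaled to genes above free RNA, 1086 at 5 CPM and 226 without members over 10000 UMIs. Genes higher in both numbered 35 as reported, 56 with at least 2000 UMIs, 11 as a mean over cells, 87 with the profile subtracted, 22 with 5 CPM added, 175 at 5 CPM, 12 without members over 10000 UMIs and 19 with meiotic-marker members. For the named log2 ratios, direction was compared only where the reported or the alternative value reached 2-fold. Sign changes between smaller ratios were not counted. Of 500 alternative values, 435 stayed on the same side of 2-fold, 34 passed it, 28 no longer did and 3 reversed. Those 3 were Ppm1m in KO over WT at 0.26 under the mitochondrial limit, and L3mbtl4 and Mageb18 in KI over KO at -0.38 and at or below -0.54 without members over 10000 UMIs. For Mageb18 this is a bound with 3 UMIs in place of 0. The causes were not tested. With 537198 UMIs in the KI remaining members and 586005 in WT, genes below a few CPM could not be compared.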
